A study of Mus musculus with 12 samples.

Results

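The cell cycle and proliferation genes examined here are 35 named genes whose products copy DNA in S phase or separate the chromosomes in mitosis. They were taken by gene symbol, and 32 of the 35 had a row among the 16482 genes of the count table. These 32 comprised 12 S phase genes and 20 mitosis genes. Ccnb1, Bub1 and Cenpf had no row under these symbols, so their levels were not analysed here and only their promoters were searched.

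The study sequenced RNA of homogenised whole brains of C57BL/6 mice, 12 samples in all, by MARS-seq in its bulk variant, in which tags near the 3' end of polyadenylated transcripts are counted. Conduritol B epoxide (CBE) inactivates the lysosomal enzyme glucocerebrosidase, and mice that receive it serve as a model of Gaucher disease of the nervous system. GZ-667161 lowers the synthesis of glucosylceramide, the lipid that this enzyme degrades. The comparisons ask how far CBE alters the brain transcriptome and how far GZ-667161 given with CBE alters that response.

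The 4 PBS samples received the vehicle and were taken at postnatal day 40. The 4 CBE samples received CBE alone, replicates 2 and 3 being of day 34 and replicates 4 and 6 of day 40. The 4 CBE+GZ-667161 samples received both agents and were of day 40. No label gives a genotype other than the strain, so the model in both CBE groups is chemical. The labels do not say whether replicates came from separate mice, so a p-value here reflects variation among samples that could be partly technical.

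A cell about to divide switches on the MCM helicase, the DNA clamp PCNA and the enzymes that make deoxynucleotides, and then the mitotic cyclins, the kinase CDK1 and the spindle proteins. Across both waves, transcription depends on E2F, B-MYB and FOXM1 factors. Promoters of such genes can hold E2F sites, CCAAT boxes and the cell cycle genes homology region (CHR). In the young adult brain few cells divide, among them oligodendrocyte precursors and neural progenitors, while microglia and, to a smaller extent, astrocytes can divide after injury. In RNA from homogenised tissue, a larger number of dividing cells cannot be told apart from more RNA of these genes per cell.

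The samples held 1753626 to 6499257 counts each, and the lowest totals belonged to the 2 CBE samples of day 34. The markers of the labelled tissue were present, and all 10 neuronal, 10 astrocyte and 9 mature oligodendrocyte markers passed the filter on low counts. Levels are in CPM, the count of a gene brought to a common library size, which was adjusted with the TMM method. A gene was tested when at least 4 samples reached 2.892 CPM, and 17 of the 32 members were. Of the 17, Cenpa, Mcm4, Mcm5, Mcm6, Mcm7, Pcna and Rrm1 reached this level in all 4 PBS samples. Cdk1, Ube2c and Cenpe reached it in 0 PBS samples. Mcm2, Rrm2, Tyms, Plk1 and Tpx2 reached it in 1 PBS sample, Top2a in 2 and Mcm3 in 3. All of these, short of 4 PBS samples, were tested only because samples of the CBE groups also reached the level. Counts over the tested members are therefore given as a description. Xist, the transcript of the inactive X chromosome, was at or above 7.959 CPM in 2 PBS and 3 CBE+GZ-667161 samples and at or below 0.5554 CPM in the others, so sex was not balanced and all 4 CBE samples were of the low kind.

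The promoters of 29 of the 35 genes could be read from RefSeq (build GRCm38.p6), in 31 windows of 250 bases before to 50 bases after the start of transcription. Ccnb1, Bub1 and Cenpf, which have no row in the count table, are among the 29. CHR was searched as TTTGAA, its variant as TTCGAA, the CCAAT box as CCAAT, and E2F sites as TTTGGCGC, TTTCCCGC, TTTCGCGC, TTTGCCGC or GGCGGGAA, each on both strands; no motif was nested in another, though neighbouring E2F matches can overlap. The 8 stretches below are the 150 bases before the start of named members. They belong to those for which no annotated transcript of the same gene starts over 30 bases before that start. Transcripts of other genes were not checked. The stretches are shown because the whole windows of mitosis and S phase genes differ in which motifs they hold. The printed bases show this only in part, since TTTGAA of Plk1 and the E2F matches of Mcm3 lie after the start. The stretches read 5′ to 3′ on the strand of the gene, with every motif match in capitals.
Cdk1 (chr10:69352913-69353062, minus strand): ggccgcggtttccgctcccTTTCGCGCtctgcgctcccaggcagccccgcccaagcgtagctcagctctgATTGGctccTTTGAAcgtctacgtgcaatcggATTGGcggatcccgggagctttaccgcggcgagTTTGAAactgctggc
Top2a (chr11:99024190-99024339, minus strand): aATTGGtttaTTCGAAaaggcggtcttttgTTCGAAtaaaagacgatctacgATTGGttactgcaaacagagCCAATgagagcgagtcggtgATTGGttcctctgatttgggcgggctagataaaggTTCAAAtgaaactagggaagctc
Mki67 (chr7:135716380-135716529, minus strand): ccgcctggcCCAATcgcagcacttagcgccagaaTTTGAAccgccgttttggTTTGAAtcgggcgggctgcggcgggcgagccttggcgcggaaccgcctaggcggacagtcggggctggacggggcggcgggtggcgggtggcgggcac
Plk1 (chr7:122159285-122159434, plus strand): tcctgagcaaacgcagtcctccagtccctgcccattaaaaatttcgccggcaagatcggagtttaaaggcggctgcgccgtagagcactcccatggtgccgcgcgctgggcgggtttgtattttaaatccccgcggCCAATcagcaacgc
Mcm2 (chr6:88898781-88898930, minus strand): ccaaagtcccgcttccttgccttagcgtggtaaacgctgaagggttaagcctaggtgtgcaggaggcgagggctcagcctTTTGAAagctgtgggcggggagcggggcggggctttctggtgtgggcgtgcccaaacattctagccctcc
Mcm3 (chr1:20820313-20820462, minus strand): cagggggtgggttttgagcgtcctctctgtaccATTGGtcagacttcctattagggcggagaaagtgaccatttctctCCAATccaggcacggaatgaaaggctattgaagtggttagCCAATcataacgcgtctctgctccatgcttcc
Mcm6 (chr1:128359706-128359855, minus strand): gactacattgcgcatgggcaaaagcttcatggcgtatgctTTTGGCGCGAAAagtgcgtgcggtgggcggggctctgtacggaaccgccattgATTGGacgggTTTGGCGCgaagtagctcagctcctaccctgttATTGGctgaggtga
Rrm1 (chr7:102441545-102441694, plus strand): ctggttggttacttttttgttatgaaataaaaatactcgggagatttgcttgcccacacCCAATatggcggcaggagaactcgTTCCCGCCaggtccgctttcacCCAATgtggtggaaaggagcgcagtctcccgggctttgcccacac

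TTTGAA was present in 15 of the 20 windows of mitosis genes, or 75.0%, and in 1 of the 11 windows of S phase genes, or 9.09%, against 17.9% of the 32851 windows of the whole table. Mcm2 was the S phase gene with this match. An E2F match was found in 5 of 11 S phase windows, or 45.5%, in 1 of 20 mitosis windows, or 5.0%, and in 3.89% of all windows. Cdk1 was the mitosis gene with an E2F match, and its printed stretch also holds 2 CHR and 2 CCAAT matches. CCAAT was found in 27 of the 31 member windows, or 87.1%, against 37.4% of all windows. These matches are letters in a window and were not tied to any measured binding.

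The summed level of both phases was higher with CBE than with PBS. The 12 S phase genes summed to 88.37, 110.4, 94.25 and 96.76 CPM in PBS replicates 2, 3, 4 and 5 and to 142.8, 129.4, 133.4 and 153.6 CPM in CBE replicates 2, 3, 4 and 6. Every CBE sample lay above every PBS sample. Pooled over samples, 1343 counts in CBE against 1707 in PBS gave a ratio of levels of 1.43 (95% interval 1.33 to 1.54, which covers counting error only). Pcna held the most counts of the 12, and without it the log2 ratio of the mean levels went from 0.52 to 0.66.

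The 20 mitosis genes summed to 29.9, 33.4, 21.36 and 30.46 CPM in the PBS samples and to 49.04, 81.65, 57.08 and 59.27 CPM in the CBE samples. The groups did not overlap, and CBE replicate 3, of day 34, stood highest. The pooled ratio was 2.04 (1.81 to 2.30). Without CBE replicate 3 the log2 ratio of the means was 0.94, against 1.10 with it. The 13 mitosis genes with too few counts for a test gave a pooled ratio of 2.07 (1.68 to 2.54) on their own. The filter on low counts set which genes enter that sum, while the sum over all 20 does not depend on it.

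With CBE+GZ-667161 the S phase genes summed to 111.3, 121.3, 127.5 and 144.3 CPM in replicates 2, 3, 4 and 5. All 4 samples were above the PBS samples, with replicate 2 barely above the highest of them. The pooled ratio to PBS was 1.26 (1.18 to 1.34). The mitosis genes summed to 40.9, 76.46, 55.67 and 55.24 CPM, again above every PBS sample, with a pooled ratio of 1.93 (1.73 to 2.15).

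Between the 2 CBE groups the sums overlapped in both phases. The S phase mean was 126.1 ± 13.8 CPM (SD, n = 4) with GZ-667161 and 139.8 ± 10.8 CPM (SD, n = 4) without it, a pooled ratio of 0.877 (0.818 to 0.941). This interval leaves out the spread between samples, across which the groups overlapped. The mitosis mean was 57.1 ± 14.6 CPM (SD, n = 4) against 61.8 ± 14.0 CPM (SD, n = 4), a pooled ratio of 0.946 (0.851 to 1.05). The log2 ratio of the mitosis means was -0.11, and it was 0.05 without CBE replicate 3 and 0.02 without CBE+GZ-667161 replicate 2. The plot of summed levels shows these values sample by sample.

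**Figure D1:**
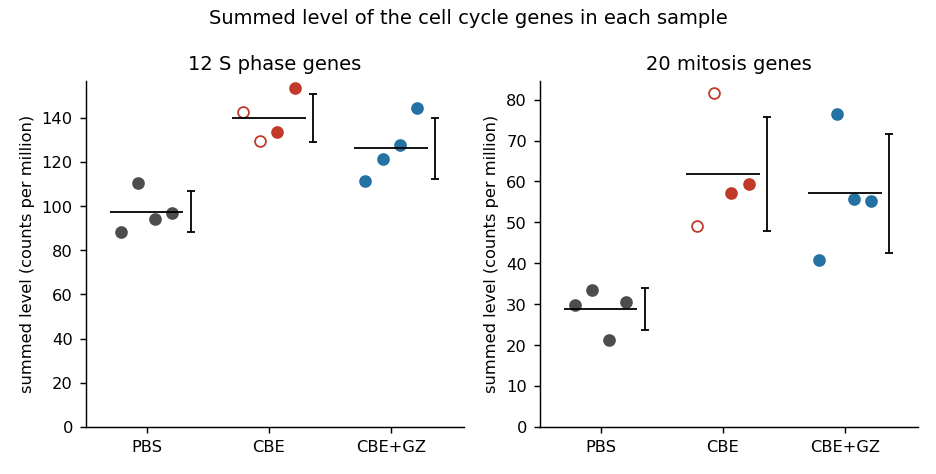
Summed level in CPM of the 12 S phase genes (left) and the 20 mitosis genes (right), with 1 point per sample, open points for day 34, a line at the mean and a bar of 1 SD beside it. PBS samples reach 110.4 and 33.4 CPM at most, and every sample of both CBE groups lies above them.

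Single members were then tested. In CBE against PBS, 4 of the 17 tested members passed an adjusted p of 0.05 (edgeR's quasi-likelihood test, adjusted over all 12623 genes tested), all of them higher. Among all tested genes 6.95% passed as higher and 4.04% as lower. All 17 had a log2 fold change above 0, against 48.2% of all tested genes, and 3 had CBE samples all above the PBS samples, against 8.61% of all. The median log2 fold change was 0.58 over the 10 S phase genes tested and 0.98 over the 7 mitosis genes tested, against -0.01 over all genes. The mitosis median is the value of Ube2c. Ube2c and Cdk1, both among the 3 without overlap, reached the filter level in 0 PBS samples. Of the called members, Mcm3 reached it in 3 PBS samples, and Mcm6 and Mcm7 in all 4. The contrast with all genes is therefore set in part by the filter, through every tested member short of 4 PBS samples at that level. The members that reached it in all 4 PBS samples had log2 fold changes of 0.12 (Pcna) to 0.85 (Mcm7) with CBE. In CBE+GZ-667161 against PBS, 1 of 17 passed, and 3.11% of all genes passed as higher and 0.333% as lower. Here 16 of 17 were above 0, against 49.9% of all genes, and 3 did not overlap upwards, against 6.65%. The medians were 0.60 and 0.99, the latter again the value of Ube2c. Cenpa, the tested mitosis gene that reached the filter level in all 4 PBS samples, was at 0.57 with CBE and 0.09 with CBE+GZ-667161. Both comparisons use the same PBS samples, so they are not independent of each other.

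**Figure D2:**
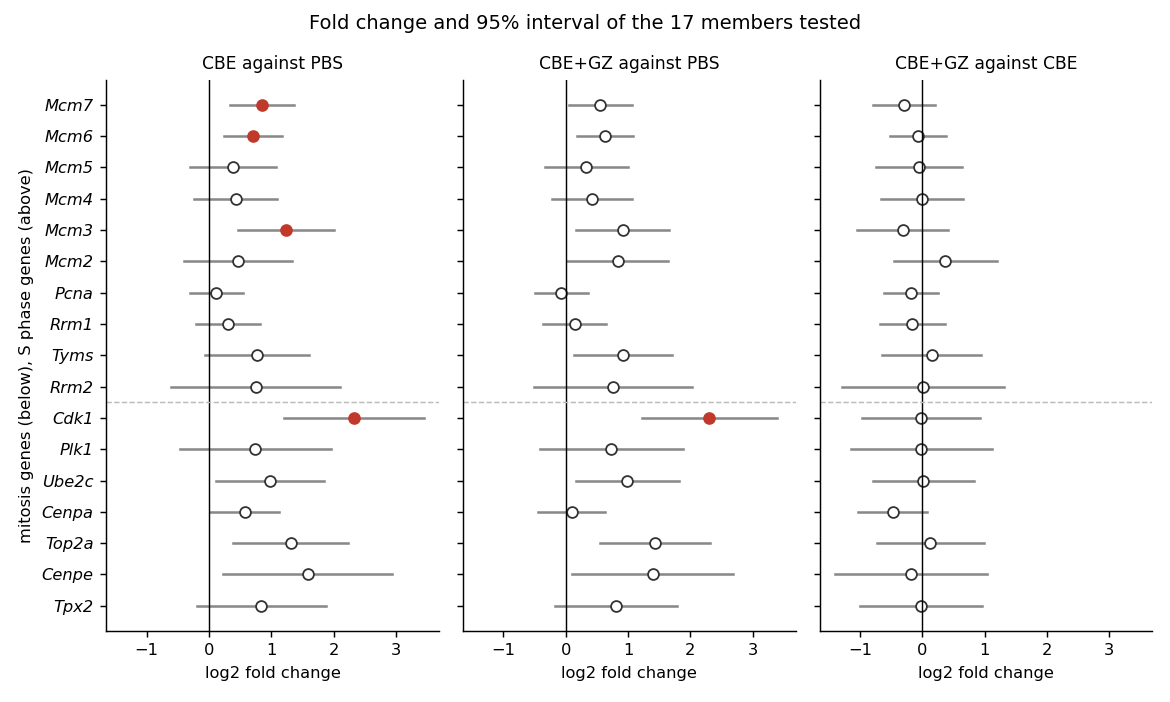
Log2 fold change (points) and its 95% interval (lines) for the 17 members tested, in the 3 comparisons, with S phase genes above the dashed line and mitosis genes below. Filled red points passed an adjusted p of 0.05: Cdk1, Mcm3, Mcm6 and Mcm7 with CBE, and Cdk1 with CBE+GZ-667161.

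Among the mitotic regulators, Cdk1, the kinase that drives entry into mitosis (chr10:69335146-69352938), rose with CBE. It lay at 1.058, 2.127, 0.4189 and 0.4615 CPM in the PBS samples and at 2.695, 8.331, 5.252 and 5.298 CPM in the CBE samples. The highest PBS sample was below the lowest CBE sample. The log2 fold change was 2.32 ± 0.53 (SE; edgeR adjusted p = 0.0086). In the CBE+GZ-667161 samples Cdk1 was at 2.499, 7.147, 6.488 and 4.9 CPM, all above PBS, with a log2 fold change of 2.30 ± 0.51 (edgeR adjusted p = 0.0145). These values rest on 18, 51 and 86 counts in the 3 groups, and the call with CBE+GZ-667161 ended when PBS replicate 4, PBS replicate 5, or replicate 3 or 4 of its own group was left out (adjusted p as high as 0.0662). That with CBE alone ended without the day 40 CBE samples (adjusted p = 0.0653).

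The 2 cyclins with a row, both partners of CDK1, had too few counts for the test. Ccna2 had 4 counts over the PBS samples, 15 over the CBE samples and 30 over the CBE+GZ-667161 samples. Its pooled ratio to PBS was 6.83 (95% counting interval 2.18 to 28.3) with CBE and 8.12 (2.86 to 31.7) with CBE+GZ-667161. Its 3' end overlaps Exosc9 on the opposite strand, and without knowledge of the strand setting the reads of both genes cannot be told apart. Ccnb2 had 16, 30 and 48 counts, which gave ratios of 3.42 (1.80 to 6.71) and 3.25 (1.81 to 6.13). For both cyclins each sample of the 2 CBE groups lay above each PBS sample. With Cdk1, the 3 genes summed to at most 3.404 CPM in PBS and to at least 7.545 CPM in CBE and 6.816 CPM in CBE+GZ-667161. In the authors' deposited table, which rests on the same samples, 6 members passed with CBE: Cdk1, Ccna2, Ccnb2, Mcm3, Mcm6 and Mcm7. With CBE+GZ-667161, 2 passed there, Cdk1 and Ccna2.

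The mitotic kinases and checkpoint genes lay lower and varied more. Plk1, a kinase of spindle assembly, was at 0.7937, 3.404, 2.094 and 1.384 CPM in PBS and at 1.078, 4.443, 5.953 and 1.324 CPM in CBE. The groups overlapped and it did not pass (0.74 ± 0.57, edgeR adjusted p = 0.454). Bub1b, a checkpoint kinase that delays anaphase, had 15 counts in PBS, 27 in CBE and 13 in CBE+GZ-667161. Its ratio was 3.28 (1.68 to 6.63) with CBE, 0.938 (0.411 to 2.11) with CBE+GZ-667161 and 0.286 (0.136 to 0.574) between the 2 CBE groups, for which no test across samples was made in the filtered fit. Its highest CBE+GZ-667161 sample, at 1.336 CPM, lay just above the lowest CBE sample, at 1.324 CPM. Aurka, a centrosome kinase, had a ratio of 2.10 (1.20 to 3.70) with CBE and 1.42 (0.825 to 2.46) with CBE+GZ-667161. Aurkb and Birc5, members of the chromosomal passenger complex, had ratios of 2.34 (0.776 to 7.40) and 1.51 (0.840 to 2.68) with CBE, intervals that include 1.

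Of the genes that serve the anaphase-promoting complex, Ube2c, its ubiquitin-conjugating enzyme, was at 2.91, 2.553, 1.257 and 2.461 CPM in PBS and at 3.772, 7.221, 3.151 and 4.967 CPM in CBE. The groups did not overlap, yet the change did not pass (0.98 ± 0.41, edgeR adjusted p = 0.151). In CBE+GZ-667161 it was at 2.726, 7.147, 5.232 and 3.564 CPM, with replicate 2 within the PBS range. Cdc20, an activator of the complex, had a ratio of 2.10 (0.933 to 4.80) with CBE and 2.998 (1.55 to 6.16) with CBE+GZ-667161. It shares its 3' end with Elovl1 on the opposite strand.

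Top2a, the topoisomerase that untangles replicated chromosomes (chr11:98992943-99024189), was at 2.117, 3.191, 2.513 and 4.307 CPM in PBS. It reached 4.311, 14.44, 3.151 and 9.933 CPM in CBE, where replicate 4 fell within the PBS range, and the change did not pass (1.31 ± 0.44, edgeR adjusted p = 0.0666). In CBE+GZ-667161 it was at 7.498, 6.714, 12.56 and 7.128 CPM, all above PBS, and again missed the threshold (1.43 ± 0.42, edgeR adjusted p = 0.0814). With DESeq2 as run here it passed in both comparisons, but in the authors' deposited table it passed in neither. Mki67, the Ki-67 protein used in histology to mark dividing cells, had only 13, 12 and 24 counts in the 3 groups. Its ratio to PBS was 1.68 (0.701 to 3.998) with CBE and 1.999 (0.978 to 4.27) with CBE+GZ-667161, so no difference was detectable at this depth.

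The centromere genes differed from each other. Cenpa, the histone variant of centromeres, was at 9.525, 6.382, 6.702 and 8.461 CPM in PBS and at 10.78, 7.221, 16.11 and 11.59 CPM in CBE, and did not pass (0.57 ± 0.26, edgeR adjusted p = 0.185). In CBE+GZ-667161, at 8.634, 9.53, 8.162 and 6.682 CPM, it lay within the PBS range but for replicate 3, which exceeded the highest PBS sample slightly. Cenpe, a kinesin of the kinetochore, averaged 0.978 ± 0.553 CPM (SD, n = 4) in PBS, 3.14 ± 1.99 CPM in CBE and 2.73 ± 1.86 CPM in CBE+GZ-667161, with overlap in both comparisons (edgeR adjusted p = 0.131 and 0.325).

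The 6 spindle and cytokinesis genes had the lowest pooled ratio of the mitosis groups with CBE, 1.52 (1.11 to 2.09) against 1.85 to 4.60 in the others. Tpx2, which targets Aurora A to the spindle, was at 2.117, 3.617, 0.8378 and 1.231 CPM in PBS and at 2.695, 3.333, 4.902 and 3.311 CPM in CBE, and did not pass (0.84 ± 0.49, edgeR adjusted p = 0.31). Of the other 5, Kif20a, Kif23, Nusap1 and Prc1 had counting intervals that included 1 in both comparisons with PBS, and Nusap1 had the lowest ratio with CBE, 0.709 (0.250 to 1.78). Kif11, a motor that pushes the spindle poles apart, had a ratio of 4.55 (1.67 to 15.4) with CBE+GZ-667161, but 16 of its 21 counts came from replicate 3. That sample also had the highest sum of the 6 genes, 16.24 CPM, against 5.68 to 7.128 CPM in the other 3.

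**Figure D3:**
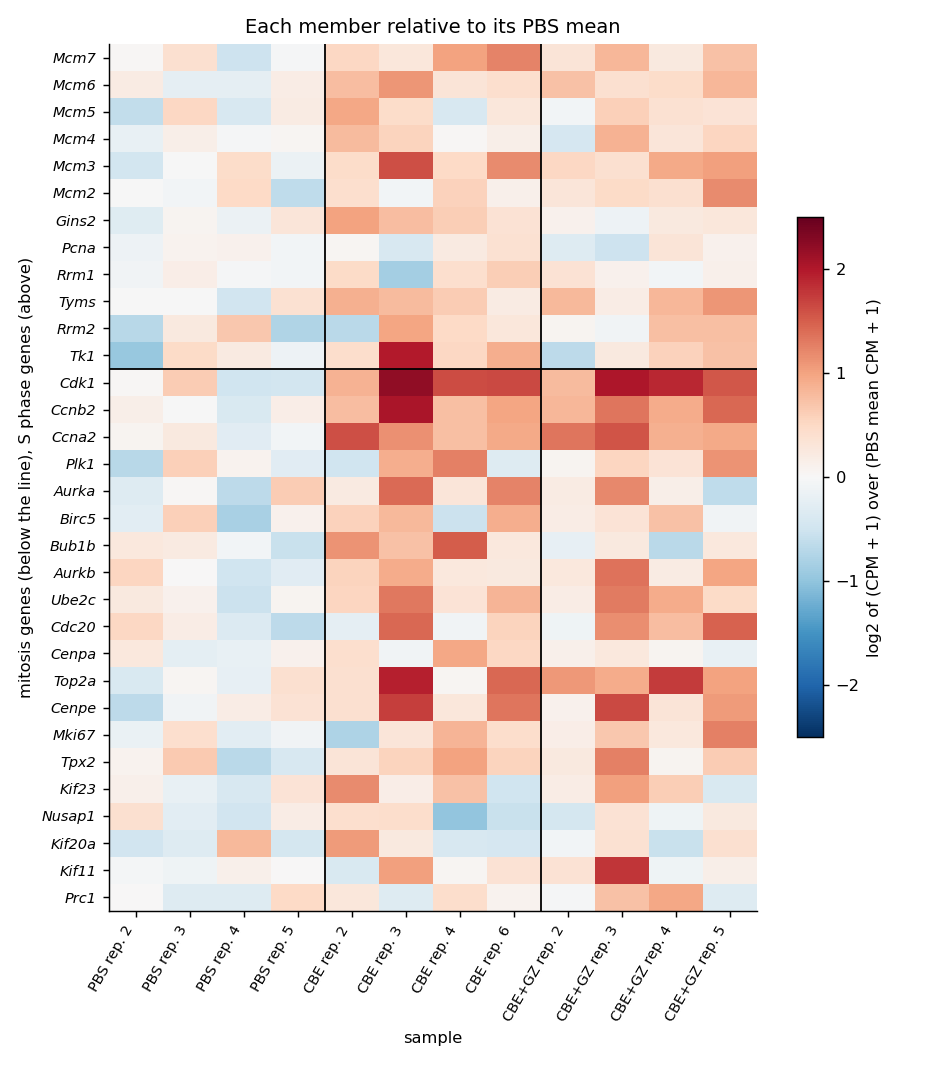
Each of the 32 members (rows) in each of the 12 samples (columns), as the log2 ratio of its CPM + 1 to its PBS mean + 1, S phase genes above the horizontal line. Red marks values above the PBS mean and blue below it; the column of CBE replicate 3 is the reddest in the mitosis genes and that of CBE+GZ-667161 replicate 3 follows, while the row of Pcna stays pale.

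In S phase most of the difference lay in the MCM helicase, the ring that unwinds DNA. The 6 MCM genes and Gins2, which encodes a partner of the ring, summed to 45.24, 56.8, 43.15 and 50.46 CPM in PBS, to 84.07, 84.98, 70.73 and 84.43 CPM in CBE and to 62.03, 79.49, 67.18 and 85.53 CPM in CBE+GZ-667161. Neither CBE group overlapped PBS, and the pooled ratios were 1.61 (1.46 to 1.77) and 1.44 (1.31 to 1.57).

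Mcm3 (chr1:20802968-20820312) was at 2.381, 3.617, 5.446 and 3.23 CPM in PBS and at 5.389, 13.33, 5.603 and 9.602 CPM in CBE. It rose with CBE by 1.23 ± 0.36 on the log2 scale (edgeR adjusted p = 0.0366), although the lowest CBE sample lay just below the highest PBS sample. In CBE+GZ-667161 it was at 5.68, 5.198, 7.953 and 8.464 CPM and did not pass (0.92 ± 0.35, edgeR adjusted p = 0.239).

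Mcm6 (chr1:128331590-128359664) was at 13.76, 9.999, 10.05 and 13.54 CPM in PBS, at 21.02, 26.66, 15.06 and 16.22 CPM in CBE and at 20.22, 16.03, 16.74 and 21.83 CPM in CBE+GZ-667161. Neither group overlapped PBS. The rise with CBE was 0.70 ± 0.22 (edgeR adjusted p = 0.0493), close to the threshold, and the value with CBE+GZ-667161 was 0.64 ± 0.21 (edgeR adjusted p = 0.146).

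Mcm7 (chr5:138164583-138172422) was at 15.08, 19.79, 10.05 and 14.46 CPM in PBS and at 21.56, 18.33, 30.81 and 36.42 CPM in CBE. It rose with CBE by 0.85 ± 0.24 (edgeR adjusted p = 0.032), with the lowest CBE sample inside the PBS range. In CBE+GZ-667161 it was at 18.86, 27.29, 17.79 and 25.39 CPM and did not pass (0.56 ± 0.24, edgeR adjusted p = 0.313). Its last 500 bases are 99.0% identical to the pseudogene Gm5487 and its 3' end overlaps Cops6 on the opposite strand, so its counts are uncertain.

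Mcm2, Mcm4 and Mcm5, the other helicase subunits tested, had log2 fold changes of 0.38 to 0.46 with CBE and did not pass (edgeR adjusted p of 0.429 to 0.523). With CBE+GZ-667161 Mcm2 was at 3.862, 4.548, 4.186 and 8.018 CPM against 1.538 to 4.608 CPM in PBS (0.83 ± 0.38, edgeR adjusted p = 0.355). Only replicate 5 stood above the PBS range. The 3 MCM calls with CBE were not firm: of 19 alternative analyses, 11 ended the call of Mcm3, 14 that of Mcm6 and 9 that of Mcm7, all with the direction kept. With Xist as a covariate Cdk1 alone passed.

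Pcna, the sliding clamp of DNA polymerase, did not follow the helicase. It was at 25.66, 29.78, 30.16 and 26.77 CPM in PBS, at 29.1, 21.11, 32.92 and 37.08 CPM in CBE and at 22.27, 19.28, 35.58 and 30.29 CPM in CBE+GZ-667161. The CBE groups spread to both sides of the PBS range, and the log2 fold changes were 0.12 ± 0.20 (95% interval -0.31 to 0.55) and -0.07 ± 0.20 (-0.49 to 0.35). A difference between Pcna and the MCM genes was not tested.

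Of the enzymes of nucleotide supply, Rrm1, the large subunit of ribonucleotide reductase, was at 14.82, 18.08, 15.5 and 15.23 CPM in PBS and at 22.63, 8.331, 21.71 and 24.83 CPM in CBE. CBE replicate 3 was the lowest of all 12 samples and the other 3 CBE samples the highest, and Rrm1 did not pass (0.31 ± 0.25, edgeR adjusted p = 0.478). Tyms, which makes thymidylate, averaged 2.14 ± 0.743 CPM (SD, n = 4) in PBS, 3.95 ± 0.958 CPM in CBE and 4.38 ± 1.32 CPM in CBE+GZ-667161, and did not pass (edgeR adjusted p = 0.241 and 0.265). Rrm2, the small subunit, did not pass either (0.75 ± 0.64 and 0.76 ± 0.60). Tk1, thymidine kinase, had 16, 28 and 21 counts, a ratio of 3.19 (1.67 to 6.31) with CBE and 1.42 (0.707 to 2.91) with CBE+GZ-667161. Of its 28 CBE counts, 12 came from replicate 3. Rrm2 and Tyms have pseudogenes that match part of their 3' ends, so reads can be split.

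**Figure D4:**
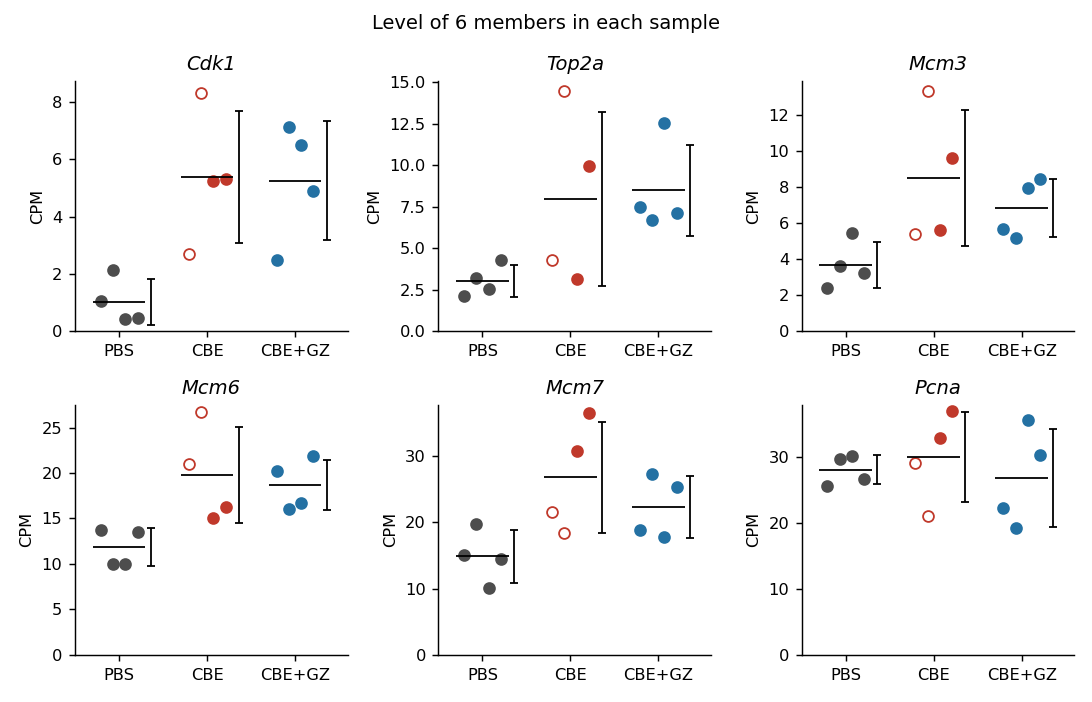
Level in CPM of 6 members in each sample, 1 point per sample, open points for day 34, a line at the mean and a bar of 1 SD beside it. Cdk1 and Mcm6 separate both CBE groups from PBS, Top2a separates CBE+GZ-667161 alone, and Pcna overlaps throughout.

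Adding GZ-667161 to CBE altered none of the tested members detectably. In CBE+GZ-667161 against CBE, 0 of 17 passed with edgeR, 0 had an unadjusted p under 0.05, and 0 passed with DESeq2 or limma-voom. Among all tested genes 0.444% passed as higher and 0.832% as lower. Of the 17, 5 were above 0, against 51.2% of all genes, and 0 had samples that did not overlap upwards, against 4.11%. Values ran from -0.48 ± 0.26 for Cenpa (edgeR adjusted p = 0.376) to 0.37 ± 0.39 for Mcm2 (edgeR adjusted p = 0.689). The medians were -0.06 in S phase and -0.02 in mitosis. The intervals leave room for sizeable differences: that of Cdk1 (-0.02 ± 0.45) ran from -0.97 to 0.93, that of Top2a (0.13 ± 0.41) from -0.73 to 0.98 and that of Mcm3 (-0.32 ± 0.34) from -1.04 to 0.41. Mcm6 (-0.07 ± 0.21) and Mcm7 (-0.29 ± 0.24) had narrower ones, -0.52 to 0.39 and -0.80 to 0.21. A value that passes against PBS in one CBE group and not in the other is therefore not shown to differ between them. Among the members not tested, Bub1b and Tk1 had counting intervals below 1 in this comparison, 0.286 (0.136 to 0.574) and 0.446 (0.241 to 0.814), and for both the samples of the groups overlapped. Gins2 did not overlap, at 0.4332 to 0.8909 CPM with GZ-667161 and 0.9933 to 2.156 CPM without it, on 11 and 14 counts (ratio 0.467, 0.192 to 1.11, an interval that includes 1). The sum of Gins2 and Tk1, the 2 S phase genes not tested, did not overlap either, at 0.9088 to 3.118 against 3.151 to 8.331 CPM (ratio 0.453, 0.277 to 0.734). That sum rests on 32 and 42 counts, and the filter on low counts set which genes enter it. Gins2 also shares its 3' end with Gse1 on the opposite strand. When no filter was used, 0 of 32 members passed in this comparison with edgeR, and 0 passed in the authors' deposited table.

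Age divided the CBE group, but it cannot be told apart from other differences between these libraries. Those of day 34 also held the fewest counts. With 2 samples at each age, 0 of 22 members tested in a fit with 4 groups passed between day 40 and day 34 (edgeR), 2 had an unadjusted p under 0.05, and 0 passed with DESeq2. Among 13372 genes 0.224% passed as higher and 0.389% as lower at day 40. Mcm7 was at 30.81 and 36.42 CPM at day 40 and 21.56 and 18.33 CPM at day 34 (0.73 ± 0.30, edgeR adjusted p = 0.27). Mcm6 went the other way, at 15.06 and 16.22 CPM against 21.02 and 26.66 CPM (-0.63 ± 0.27, edgeR adjusted p = 0.284). Both age pairs exceeded PBS in the summed levels of each phase, and without the day 34 samples, when all samples are of day 40, the log2 ratio to PBS was 0.56 in S phase and 1.02 in mitosis.

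The genes around the members in the cell cycle were examined through 5 lists. Over the 5 lists, 6 of the 78 genes tested passed as higher with CBE, or 7.69%, a share near the 6.95% of all tested genes, and 0 passed as lower. Of 6 tested G1 cyclins and kinases, 1 rose with CBE, Cdk6 (1.48 ± 0.38, edgeR adjusted p = 0.0179), a kinase that starts the cycle, and 0 fell. Of 8 tested CDK inhibitors and p53 targets, 1 rose, Cdkn2c (0.97 ± 0.29, edgeR adjusted p = 0.0403), an inhibitor of that kinase. Of 16 tested E2F, RB, DREAM and FOXM1 genes, 1 rose, Myc (1.27 ± 0.38, edgeR adjusted p = 0.0405), and 0 fell. Of 29 other replication genes, 1 rose, Cdt1 (1.52 ± 0.45, edgeR adjusted p = 0.04), which loads the helicase at origins, and 0 fell. Of 19 other mitosis genes, 2 rose, Cdca3 (2.74 ± 0.48, edgeR adjusted p = 0.00106), which triggers degradation of an inhibitor of mitotic entry, and Kif22 (0.92 ± 0.27, edgeR adjusted p = 0.0383), a chromosome motor, and 0 fell. The summed level of the 45 other mitosis genes with a row ran opposite to that of the 20 members: it was 1018 to 1427 CPM with CBE and 1429 to 1670 CPM with PBS, without overlap, a pooled ratio of 0.812 (0.795 to 0.830). Most of that sum was Tubb5, a tubulin (728 ± 145 CPM with CBE and 924 ± 53.4 CPM with PBS, SD, n = 4), and Stmn1, a microtubule regulator (191 ± 49.9 against 280 ± 39.3 CPM, SD, n = 4), and neither passed (edgeR adjusted p = 0.0978 and 0.103). With CBE+GZ-667161 the sum was 1295 to 1737 CPM and overlapped PBS. The list medians with CBE against PBS ran from 0.02 to 0.11, near the -0.01 of all genes. For CBE+GZ-667161 against PBS they ran from -0.04 in the other replication genes to 0.24 in the other mitosis genes, against -0.00024 over all genes. Against PBS, CBE+GZ-667161 had 1 call among the 78 genes, or 1.28% against 3.11% of all genes, Cdca3 higher (2.34 ± 0.47, edgeR adjusted p = 0.00681), and against CBE it had 0 calls by edgeR, with 4 higher and 8 lower at an unadjusted p under 0.05. Between the ages of the CBE group, Cdkn1a, the inhibitor p21, was at 222 ± 13.6 CPM (SD, n = 2) at day 40 and 67.6 ± 6.47 CPM (SD, n = 2) at day 34 (1.69 ± 0.25, edgeR adjusted p = 0.0096).

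Markers of the cell types that can divide were summed in the same samples. The 14 microglial markers summed to 1150 to 1276 CPM in PBS, to 5313, 6381, 4313 and 4379 CPM in CBE replicates 2, 3, 4 and 6 and to 2614, 3934, 3946 and 4684 CPM in CBE+GZ-667161 replicates 2, 3, 4 and 5, and 11 of 14 rose in each comparison with PBS, where 6.95% and 3.11% of all tested genes did. Within the CBE groups the order of the samples in these markers matched that of the members in part. CBE replicate 3 was the highest in these markers and in mitosis genes but the lowest of its group in S phase genes, and CBE replicate 2, second in these markers, was the lowest of its group in mitosis genes. CBE+GZ-667161 replicate 2 was the lowest of its group in these markers and in both phases, while replicate 5, the highest in them, was the highest in S phase genes and the third in mitosis genes. The 10 astrocyte markers summed to 3837 to 4482 CPM in PBS, 5539 to 5738 CPM in CBE and 4235 to 4882 CPM in CBE+GZ-667161, and 6 and 2 of 10 rose, against the same 6.95% and 3.11%. In CBE+GZ-667161 against CBE, 4 of 10 astrocyte and 1 of 14 microglial markers were called lower, against 0.832% of all genes. The astrocyte sums did not overlap between the CBE groups, and the microglial sums did. Many of these markers are also induced in reactive cells, so their sums are not cell counts.

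Markers of the precursor cells that divide in the uninjured brain did not rise with the members. The 10 oligodendrocyte precursor markers summed to 490.8 to 576.6 CPM in PBS, 334.1 to 475.9 CPM in CBE and 468.8 to 728.4 CPM in CBE+GZ-667161. With CBE, 1 of 9 tested rose, Vcan, against 6.95% of all genes, and 0 fell. CBE+GZ-667161 replicate 3, at 728.4 CPM, stood highest and was also the highest of its group in mitosis genes. The 11 neuroblast and progenitor markers summed to 347.9 to 462.7 CPM in PBS, 234.6 to 312.7 CPM in CBE and 260.6 to 340.9 CPM in CBE+GZ-667161. Of the 8 tested with CBE, 0 rose and 1 fell (Tubb3, also a neuronal gene), against 4.04% of all genes that fell. Yet 5 of these 8 had a log2 fold change above 0, with a median of 0.03, so most tested markers did not share the lower sum. With CBE+GZ-667161, 3 of 8 were above 0 and the median was -0.13. Markers of T, B and NK cells, of which 8 of 16 had a row, summed to 14.46 to 54.04, 30.55 to 55.96 and 37.49 to 102.7 CPM. The pooled ratio to PBS was 1.38 (1.21 to 1.56) with CBE and 2.33 (2.11 to 2.57) with CBE+GZ-667161, with overlap in both. Only 3 of these markers were tested, with 0 calls against PBS.

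Markers of other cell types differed as well. The 10 neuronal markers summed to 5511 to 5701 CPM in PBS, 3956 to 4820 CPM in CBE and 4412 to 5467 CPM in CBE+GZ-667161, below every PBS sample in both CBE groups, with pooled ratios of 0.791 and 0.879. Of the 10, 5 fell with CBE, where 4.04% of all tested genes did, and 0 with CBE+GZ-667161 (edgeR), where 4 were lower at an unadjusted p under 0.05. The 6 erythroid markers with a row summed to 1964 to 4039 CPM in PBS and to 1249 to 1734 CPM in CBE, without overlap (pooled ratio 0.564), and overlapped PBS with CBE+GZ-667161. The 8 choroid plexus and ependymal markers had a pooled ratio of 3.42 with CBE, at 84.1 to 555.4 CPM against 29.63 to 139.7 CPM, with overlap. Sums of the mature oligodendrocyte, the endothelial and pericyte, and the monocyte and neutrophil markers overlapped PBS in both comparisons. Between the CBE groups the monocyte and neutrophil sums did not overlap. They were 15.59 to 39.34 CPM with GZ-667161 and 5.554 to 12.61 CPM without it (pooled ratio 2.34). The part of each cell type in the member values was not tested.

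**Figure D5:**
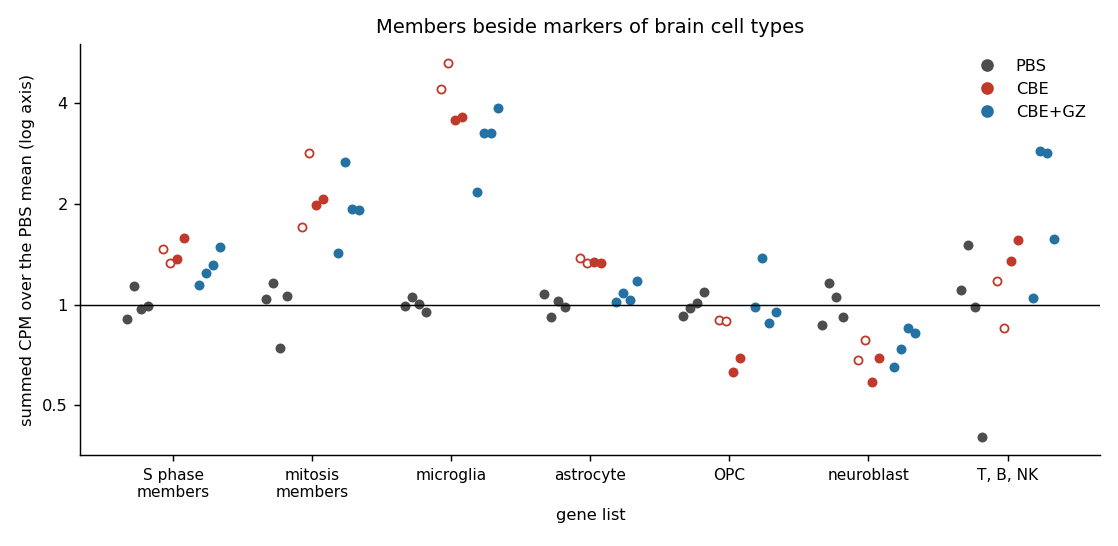
Summed level of each list in each sample divided by its PBS mean, on a log axis, 1 point per sample with open points for day 34. Both member lists and the microglial markers lie above 1 in all 8 samples of the CBE groups, while the neuroblast markers lie below 1 in all 8 and those of oligodendrocyte precursors (OPC) fall on both sides.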

How the data were processed

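RNA from whole brain was sequenced in 12 samples, 4 per group, with a bulk variant of MARS-seq, per the labels' protocols. The deposited table holds raw counts per gene symbol. The submitters' processing notes name cutadapt, HISAT 0.1.6, HTSeq, DESeq2 and mm10, without their roles. The handling of molecular identifiers, the annotation and the strand setting were not given in the sources used here. A table that the authors deposited, holding their comparisons, gives log2 fold changes with a p-value per gene and its adjusted form, and served only to name the members it calls. The authors' normalized values were not used.

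Of 16505 entries, 23 bore a date in place of a symbol (0.266% to 0.347% of a sample's counts) and were left out. Genes were filtered with filterByExpr (minimum count 10, minimum total 15), which left 12623 tested, and were scaled with TMM. They were tested with edgeR 4.0.16 (glmQLFit, glmQLFTest) in 1 fit of the 3 groups, or of 4 groups for age, with Benjamini-Hochberg adjustment over all tested genes and a threshold of 0.05. Standard errors are the log2 fold change divided by the root of F. Pooled ratios compare summed counts per library size with exact 95% intervals. These cover counting error only, since counts were summed over samples and the spread between samples was left out. Tags may not be unique molecules, so even the counting error may be understated. The steps were tested on simulated data.

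The members, the lists and the naming rule were chosen with earlier results of these data known. Named members were those called in any comparison, the highest in each role group, and Mki67, Top2a, Cdk1, Ccnb1, Pcna and Mcm2. For the comparison of the 2 CBE groups, single values are given for the called members, Top2a, Cenpa and Mcm2. Of the pathway lists, up to 4 called genes of smallest p were named. Promoters are from RefSeq GRCm38.p6, positions from GENCODE M21 (mm10), matched by symbol. Overlaps and near-identical copies were sought in the last 500 bases of each member. Alternatives were RLE and no scaling, no filter, DESeq2 1.42.0, limma-voom (limma 3.58.1), fewer samples, Xist or replicate number as a term, and an adjusted p under 0.01. Python 3.11.15 and R 4.3.3 were used.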

Additional observations from a re-analysis of the deposited data

Results flagged for a closer look

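Of 129 sets of 4 samples examined, 9 held 1 sample far from the other 3 (a gap to its neighbour beyond the 95% value of Dixon's test), and chance alone gives about 1 in 20. Among the members, Mcm2 was at 8.018 CPM in CBE+GZ-667161 replicate 5 against 3.862 to 4.548 CPM in the other 3. Top2a was at 12.56 CPM in CBE+GZ-667161 replicate 4 against 6.714 to 7.498 CPM. The spindle and cytokinesis genes summed to 16.24 CPM in CBE+GZ-667161 replicate 3 against 5.68 to 7.128 CPM. The MCM and GINS genes summed to 70.73 CPM in CBE replicate 4 against 84.07 to 84.98 CPM. Gins2 and Tk1, the S phase genes not tested, summed to 8.331 CPM in CBE replicate 3 against 3.151 to 3.772 CPM. The mitosis genes not tested summed to 6.283 CPM in PBS replicate 4 against 10.61 to 11.28 CPM.

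Among the other lists, the G1 cyclins and kinases summed to 304.0 CPM in CBE+GZ-667161 replicate 2 against 298.5 to 299.1 CPM, a small step in a narrow range. The other mitosis genes summed to 1670 CPM in PBS replicate 3 against 1429 to 1444 CPM. Markers of choroid plexus and ependyma summed to 139.7 CPM in PBS replicate 5 against 29.63 to 40.42 CPM.

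Between the ages of the CBE group, Cdkn1a differed by 1.69 on the log2 scale, higher at day 40 (edgeR adjusted p = 0.0096, n = 2 against 2). Both day 40 samples lay above both day 34 samples, and the day cannot be told apart from other differences between these libraries.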

How the results depend on the processing

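Against PBS, the median and summed values of both phases were above 0 under every alternative run. The S phase log2 ratio of summed levels moved beyond its spread without Pcna, to 0.66 with CBE and 0.52 with CBE+GZ-667161. The count of members called moved more. With CBE it was 4, and it was 7 with DESeq2, 2 without the day 34 samples, 2 with the replicate block, 1 when only the groups compared were fitted, 1 with Xist as a covariate and 1 at an adjusted p under 0.01; leaving out 1 sample gave 1 (PBS replicate 2 or 5), 2 (PBS replicate 3 or 4, CBE replicate 3 or 6) or 5 (CBE replicate 2 or 4). With CBE+GZ-667161 it was 1, and it was 3 when only the groups compared were fitted, 2 with no filter, 2 with DESeq2, 2 without the day 34 CBE samples, 2 without the day 40 ones and 0 at an adjusted p under 0.01; leaving out 1 sample gave 0 (PBS replicate 4 or 5, CBE+GZ-667161 replicate 3 or 4) or 1. The number of members tested, 17, changed under many of these settings. With CBE it was 31 with DESeq2, 9 when only the groups compared were fitted, where Cdk1 was itself not tested, 21 without the day 34 samples and 18 to 21 without 1 sample. With CBE+GZ-667161 it was 32 with no filter, 24 with DESeq2, 16 when only the groups compared were fitted, 21 and 23 without the day 34 and day 40 samples, and 15 to 21 without 1 sample. With the replicate block or Xist it stayed at 17, and the cause was not tested. Deviations of samples with equal replicate numbers correlated at -0.0783 to 0.24, and those of samples with unequal numbers at -0.27 to 0.42. Whether equal numbers mark a pairing was not tested, and the block serves only as an alternative.

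Among single members, signs turned only for values that had not passed. Pcna with CBE was -0.14 and Rrm1 -0.020 without the day 40 samples, and Pcna was -0.049 with Xist and -0.029 with the replicate block. Pcna with CBE+GZ-667161 was 0.008008 with Xist and -0.24 to 0.071 without 1 sample. Between the CBE groups, without the day 34 samples Cdk1 was 0.0081 and Mcm6 0.25, and without the day 40 samples Mcm7 was 0.13 and Top2a -0.15. Cdk1 was 0.64 with Xist and 0.093 with the replicate block. Without 1 sample Cdk1 ran from -0.22 to 0.22, Mcm6 from -0.18 to 0.10 and Top2a from -0.16 to 0.53. Few counts limit the mitosis genes, 13 of which could not be tested.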
